A study of Mus musculus with 12 samples.

Results

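Toll-like receptors and receptors of the interleukin-1 (IL-1) family sense microbial products and molecules released by damaged cells. The genes followed here were 10 listed by symbol for that role, of 33615 gene symbols in the table. They were the receptor genes Tlr2, Tlr3, Tlr4, Il1r1, Il1rap and Il1rl1, the signalling genes Myd88, Irak2 and Irak3, and the alarmin gene Il33. All 10 were found and all 10 had enough counts to be tested.

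The libraries came from frozen mouse heart, 4 for each of 3 groups. Sham hearts had a sham operation and are labelled with a time of 2 h. I/R hearts had 30 min of ischemia, a stop of blood flow, and then 2 h of reperfusion, its return. I/R + ML264 hearts had the same injury and were treated with ML264, given as an inhibitor of the transcription factor KLF5. The labels give no strain, genotype, sex, age, dose, time of dosing or vehicle for any group, and no ML264-treated sham hearts were analysed here. Whether the libraries are from different animals is not stated, and p-values therefore cover the spread from library to library, which may be technical. Summed markers of cardiomyocytes reached 87220 to 105509 CPM (counts per M counts of a library, M for mega) in every library, as the label of heart requires.

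As background, TLR2 and TLR4 sit on the cell surface and bind bacterial lipids as well as several products of damaged tissue, whereas TLR3 binds double-stranded RNA inside endosomes. IL1R1 binds IL-1 and pairs with the accessory chain IL1RAP, which also pairs with ST2, the product of Il1rl1 and the receptor of IL-33. All of these receptors except TLR3 can signal through the adaptor MYD88, which recruits IRAK kinases and leads to NF-kB activation. IRAK2 sustains this signal and IRAK3, also called IRAK-M, restrains it. In the heart, TLR4 and IL-1 signalling are known for their part in inflammation after reperfusion, and IL-33 with ST2 for signalling between fibroblasts and cardiomyocytes.

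Of the 10 genes, Tlr2 and Irak2 passed the test between I/R and Sham, and the sequence just upstream of each is shown because they carry that result. They are RefSeq sequences of GRCm38.p6, written 5′ to 3′ on the strand of the gene, limited to bases outside the annotated gene. Capitals mark matches, on either strand, of the NF-kB consensus of 10 letters.
Tlr2, chr3:83841768-83841858, minus strand: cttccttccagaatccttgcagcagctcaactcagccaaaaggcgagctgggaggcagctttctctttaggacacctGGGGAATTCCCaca
Irak2, chr6:113638217-113638466, plus strand: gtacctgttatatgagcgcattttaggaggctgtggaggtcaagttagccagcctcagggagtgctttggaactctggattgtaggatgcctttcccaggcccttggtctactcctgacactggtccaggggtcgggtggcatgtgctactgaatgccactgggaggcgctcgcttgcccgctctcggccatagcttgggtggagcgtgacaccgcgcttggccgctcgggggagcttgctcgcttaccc
The Tlr2 stretch holds 2 overlapping matches, the first of which starts 173 bases upstream of the RefSeq start. The annotated Tlr2 gene begins upstream of that RefSeq start, so the stretch shown ends before it. The Irak2 stretch holds none. A window of 250 bases before the RefSeq start was given for 9 of the 10 genes, in 13 windows. Of those windows 3, of Tlr2, Tlr3 and Il1r1, held a match, beside 3.9% of all 32851 windows. The matching windows of Tlr3 and Il1r1 lie wholly inside the annotated genes. The NF-kB consensus was taken up after a looser form, with only the outer G and C bases fixed, had been counted in the same windows. The looser form, which every match of the consensus also fits, was in 5 of the 13 windows and 45.8% of all. The other motifs searched on both strands were TGANTCA (AP-1), in 0 of 13 windows and 6.7% of all, TTCNNNGAA (a STAT motif), in 1 and 7.0%, and TATAAA, in 3 and 12.4%. A match of letters is a description and not a site of binding.

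The genes lie on 9 chromosomes of GRCm38, and Il1r1 (chromosome 1, 40225080 to 40317257) and Il1rl1 (chromosome 1, 40429570 to 40465415) lie on the same strand of the same one. Tlr2 spans chromosome 3 from 83836272 to 83841767 on the minus strand, and Irak2 spans chromosome 6 from 113638467 to 113695026 on the plus strand. Tlr3 (chromosome 8, 45395665 to 45411080), Myd88 (chromosome 9, 119335934 to 119341411) and Irak3 (chromosome 10, 120141648 to 120202130) are on the minus strand. Tlr4 (chromosome 4, 66827584 to 66930284), Il1rap (chromosome 16, 26581704 to 26730117) and Il33 (chromosome 19, 29925114 to 29960718) are on the plus strand. Each value below is the sum over all transcripts of a gene, exons and untranslated regions included. Of the 31-base words of these genes' transcripts, at most 11% also occur in transcripts of other genes, with Irak2 at 11% and Tlr2 at 0.0%.

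Levels between genes were compared as CPM per kilobase of merged exons. In Sham hearts Tlr4 was the most abundant of the 10 at 5.81 ± 0.85 (SD, n = 4). Il1r1 at 2.99 ± 0.56 and Tlr3 at 2.87 ± 0.43 followed, and their ranges overlapped. Irak2 at 1.44 ± 0.29 and Irak3 at 1.43 ± 0.22 came next and also overlapped. The lower levels were those of Myd88 (0.70 ± 0.13), Il33 (0.67 ± 0.20), Tlr2 (0.47 ± 0.10), Il1rl1 (0.44 ± 0.07) and Il1rap (0.26 ± 0.04). In this lower set each neighbour overlapped the next except Il1rap, which lay below Il1rl1 in every Sham library. That gap rests on the exon length used, 11.36 kb for Il1rap and 6.89 kb for Il1rl1. In CPM not divided by length, Il1rap (2.35 to 3.4) and Il1rl1 (2.31 to 3.38) overlapped in Sham. In I/R hearts the order of Tlr4 (6.85 ± 0.91) and Il1r1 (3.96 ± 0.74) at the top was the same, and Irak2 (2.76 ± 0.51) stood at a mean above that of Tlr3 (2.42 ± 0.36), with overlapping ranges. Summed counts per library ran from 30 for Tlr2 to 1305 for Tlr4, so counting error is largest for Tlr2, Il33 and Myd88.

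**Figure D1:**
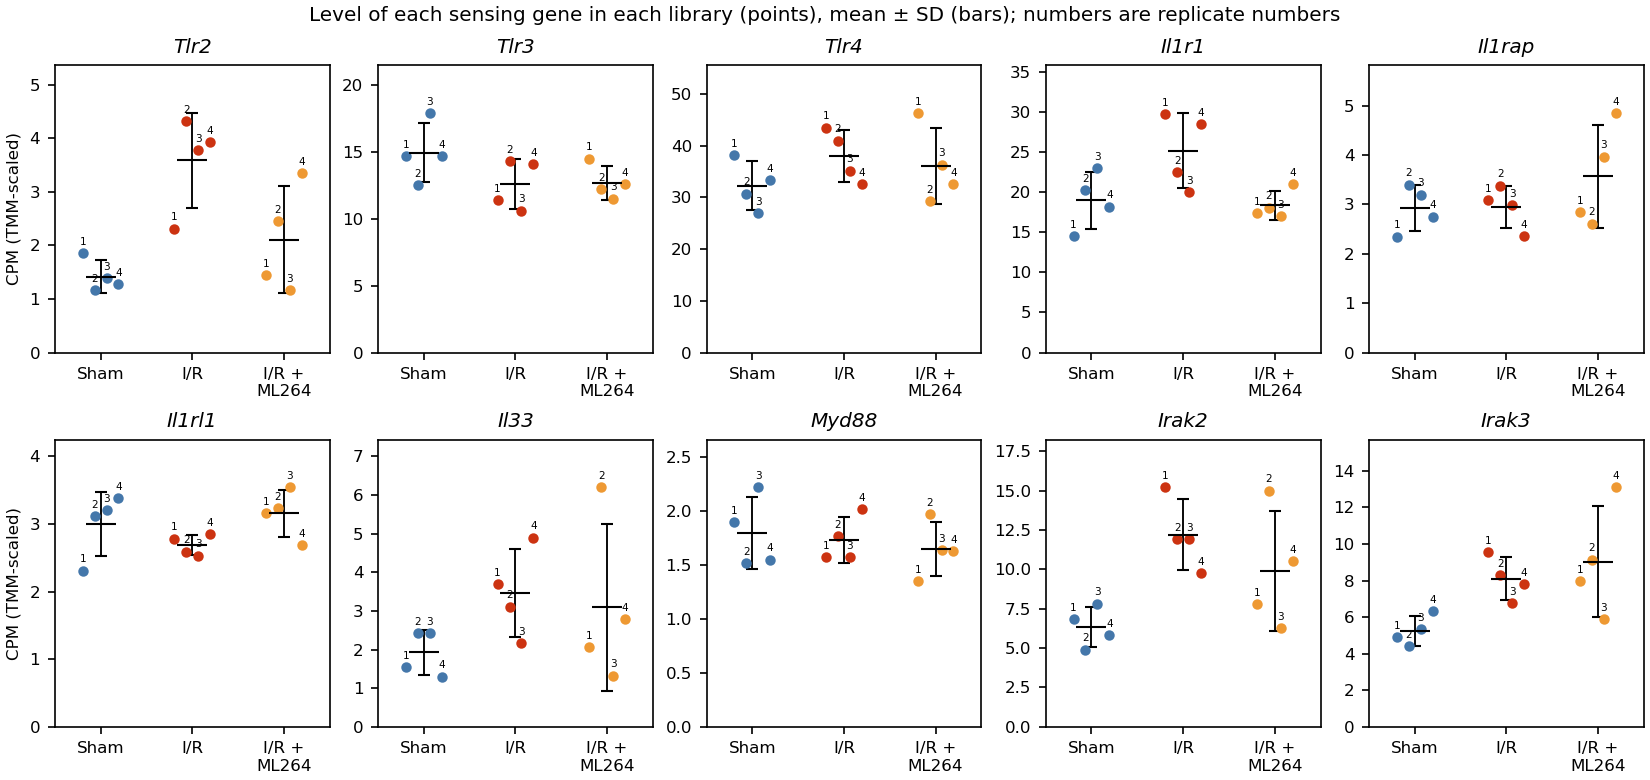
CPM (vertical axis, from 0, one scale per gene) of the 10 genes in the 12 libraries, with points for libraries and bars for the mean and SD of each group of 4. The I/R points of Tlr2 lie from 2.31 to 4.32, above all Sham points, which end at 1.85.

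The first comparison asked which of these genes differed between injured and sham hearts. Tlr2, the receptor of bacterial lipopeptides, rose to 2.54 times its Sham level on the fitted scale, and Irak2, the kinase that sustains receptor signalling, rose to 1.93 times. Irak3, its inhibitory relative, was higher in every I/R library but did not pass. The remaining 7 genes, among them Tlr4, Myd88 and both chains of the IL-33 receptor, did not pass either. With edgeR's quasi-likelihood test and Benjamini-Hochberg adjustment, 2 of 10 were called at an adjusted p under 0.05, both higher. Of all 15952 genes tested, 7.75% were called, and 4.58% were called as higher. Between I/R and Sham, 3 of the 10 genes had I/R libraries all above the Sham libraries, beside 8.54% of all genes, and 0 had them all below, beside 7.25%. The median log2 fold change of the 10 was 0.32, beside 0.002 over all genes tested. The 10 genes were chosen with earlier results of these data known, so these shares are a description and not a test of the set.

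Tlr2 measured 1.85, 1.16, 1.39 and 1.27 CPM in the 4 Sham libraries, 2.31, 4.32, 3.78 and 3.93 CPM in I/R and 1.45, 2.45, 1.17 and 3.35 CPM in I/R + ML264. The I/R and Sham libraries did not overlap, I/R replicate 1 was the lowest of the injured group, and the ML264 libraries spread across both ranges. The log2 fold change of I/R against Sham was 1.34 ± 0.31 (SE), with an adjusted p of 0.014. It stayed called with any single library left out, at 1.24 to 1.51.

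Irak2 measured 6.83, 4.89, 7.82 and 5.81 CPM in Sham, 15.2, 11.9, 11.9 and 9.77 CPM in I/R and 7.77, 15.0, 6.27 and 10.5 CPM in I/R + ML264. Every I/R library exceeded every Sham library, and ML264 replicates 2 and 4 lay within the I/R range. The log2 fold change was 0.94 ± 0.24 (SE), adjusted p = 0.0288. Leaving out Sham replicate 1, 2 or 4 or I/R replicate 1, 2 or 3, one at a time, ended this call, with log2 fold changes from 0.82 to 1.06 over all libraries left out.

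Irak3 measured 4.89, 4.42, 5.35 and 6.31 CPM in Sham, 9.56, 8.3, 6.76 and 7.82 CPM in I/R and 7.98, 9.14, 5.88 and 13.1 CPM in I/R + ML264. I/R lay wholly above Sham, while ML264 replicate 3 fell inside the Sham range and replicate 4 was the highest of the 12. The log2 fold change of I/R against Sham was 0.63 ± 0.20 (SE), and its adjusted p of 0.0694 missed the threshold. The DESeq2 Wald test passed it at 0.0389.

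The libraries also differed in ways that the labels do not give and that were not spread evenly over the groups. The Y-linked gene Ddx3y was at 39.49 to 50.71 CPM in all Sham libraries, I/R replicates 2 and 3 and ML264 replicates 3 and 4, while the other 4 had 0.11 to 0.53 CPM. Within the libraries above 10 CPM of Ddx3y (4 Sham, 2 I/R, 2 ML264), the log2 fold change of Tlr2 was 1.52 (adjusted p = 0.0285), that of Irak2 0.91 (adjusted p = 0.0332) and that of Irak3 0.52 (adjusted p = 0.355). The libraries below that level held no Sham library, so they give no such value. With Ddx3y as a term over all libraries Irak2 lost its call, at 0.86 (adjusted p = 0.0993). Because all Sham libraries were high in Ddx3y, that term shares part of the difference between I/R and Sham. The clock gene Arntl was at 10.58, 16.56 and 10.63 CPM in Sham replicates 2 and 3 and I/R replicate 1, with 0.94 to 3.29 CPM elsewhere. With Arntl as a term Tlr2 lost its call, at 1.05 (adjusted p = 0.101). The part of sex or time of day in these results was not tested.

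Neutrophils are known to express Tlr2. Of 10 neutrophil markers 7 were tested, and Mmp9, Clec4d and Trem1 rose between Sham and I/R, beside 4.58% of all genes called as higher. The sum of all 10 markers was 5.84, 7.42, 7.47 and 4.83 CPM in Sham, 9.23, 10.7, 17.1 and 23.2 CPM in I/R and 5.21, 21.7, 6.97 and 22.1 CPM in I/R + ML264. The markers S100a8 and Ly6g were at 0 in all Sham libraries and were low in I/R too, at most 0.524 and 0.0749 CPM. Cxcr2 had the highest range of the 10 markers, at 3.77 to 5.4 CPM in Sham and 4.21 to 9.06 CPM in I/R, with overlap. The 4 I/R sums lay above the 4 Sham sums. ML264 replicates 2 and 4, the pair high in these markers, also had more Tlr2, Irak2 and Irak3 than ML264 replicates 1 and 3. Within I/R the order was not the same. I/R replicate 1, the lowest of its group in these markers at 9.23 CPM, had the least Tlr2 (2.31 CPM) but the most Irak2 (15.2 CPM) and Irak3 (9.56 CPM), and replicate 4, the highest at 23.2 CPM, had the least Irak2 (9.77 CPM). Summed monocyte and macrophage markers overlapped between the groups, at 94.6 to 159 CPM in Sham and 124 to 148 CPM in I/R. Of the 12, 1 was called, Adgre1, which was lower, beside 7.75% of all genes called in either direction. Lyve1 went the other way without a call, at 6.16 to 17.9 CPM in Sham and 18.2 to 25.0 CPM in I/R. In all, 5 of the 12 had a log2 fold change above 0 and 7 below. Endothelial markers summed to 561 to 620 CPM in Sham and 461 to 517 CPM in I/R, with Kdr and Tek called lower among 9. Of the 9, 6 had a log2 fold change below 0 and 3 above. Kdr was at 125 to 189 CPM in Sham and 74.6 to 107 CPM in I/R. Pecam1 (76.2 to 85.1 and 78.9 to 87.7 CPM), Cdh5 (119 to 150 and 130 to 142 CPM) and Vwf (13.3 to 25.0 and 13.6 to 29.4 CPM) overlapped, so the markers did not fall as a set. In bulk tissue, fewer cells of a type and less RNA per cell cannot be told apart, and the part of these cells in the results was not tested.

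**Figure D2:**
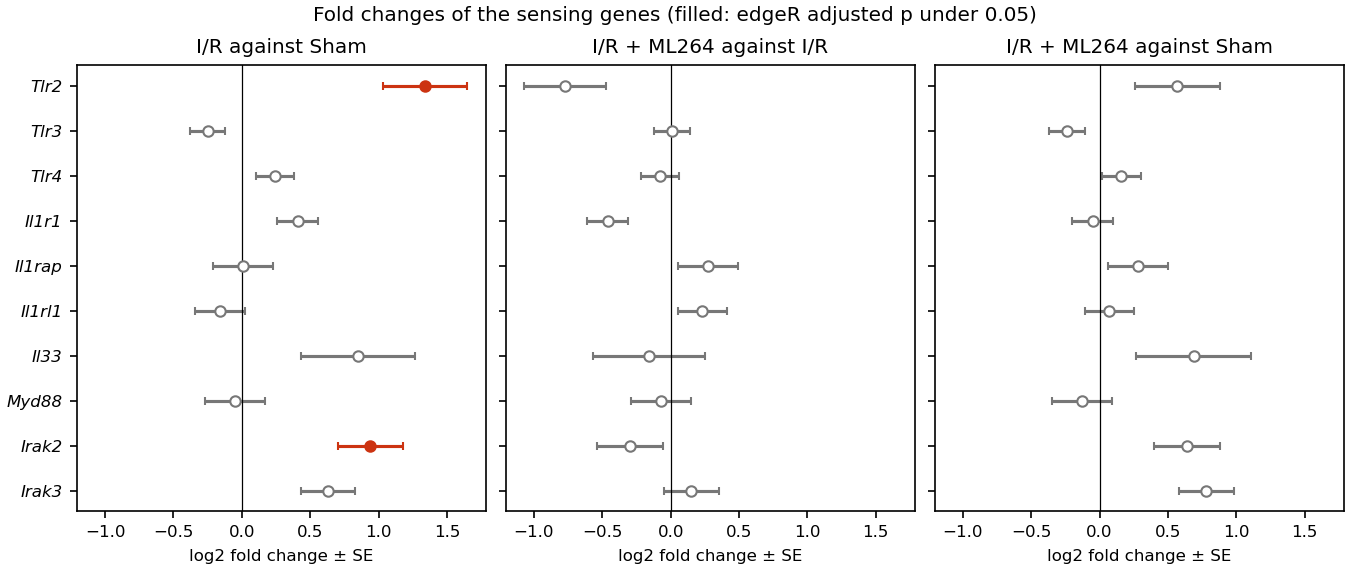
Log2 fold change (horizontal axis) with its standard error for the 10 genes in each of the 3 comparisons of the edgeR model. Tlr2 at 1.34 and Irak2 at 0.94 in I/R against Sham are the values that passed an adjusted p of 0.05.

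The other receptors did not pass between I/R and Sham. Il1r1, the signalling receptor of IL-1, measured 14.5, 20.3, 23.0 and 18.2 CPM in Sham, 29.8, 22.5, 20 and 28.5 CPM in I/R and 17.4, 18.1, 17.0 and 21.0 CPM in I/R + ML264. I/R replicates 1 and 4 were above all others, and these are the 2 I/R libraries low in Ddx3y, while replicates 2 and 3 overlapped with Sham. The ML264 group had no such split, at 17.4 to 18.1 CPM in libraries low in Ddx3y and 17.0 to 21.0 CPM in the others. The log2 fold change of I/R against Sham was 0.41 ± 0.15 (SE), adjusted p = 0.0989. It was 0.16 (adjusted p = 0.67) in the libraries above 10 CPM of Ddx3y. Tlr4 ranged from 27.0 to 38.2 CPM in Sham and 32.6 to 43.5 CPM in I/R, at a log2 fold change of 0.24 ± 0.14 (adjusted p = 0.338). Tlr3 ranged from 12.5 to 17.9 CPM in Sham and 10.6 to 14.3 CPM in I/R, at -0.25 ± 0.13 (adjusted p = 0.286). These ranges overlapped, and a miss of the threshold does not show that the levels were equal.

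For the IL-33 axis, Il33 itself had one of the larger fold changes and the widest spread. It measured 1.54, 2.43, 2.43 and 1.3 CPM in Sham, 3.7, 3.11, 2.17 and 4.9 CPM in I/R and 2.06, 6.2, 1.32 and 2.78 CPM in I/R + ML264. I/R replicate 3 lay inside the Sham range, and ML264 replicate 2 was the highest library. The log2 fold change was 0.85 ± 0.42 (SE), adjusted p = 0.25. The highest I/R libraries, replicates 1 and 4, are those low in Ddx3y, and the value was 0.45 (adjusted p = 0.551) in the libraries above 10 CPM of Ddx3y and 0.44 (adjusted p = 0.627) with Ddx3y as a term. Its receptor gene Il1rl1 was at 2.31 to 3.38 CPM in Sham and 2.53 to 2.85 CPM in I/R (log2 fold change -0.16 ± 0.18, adjusted p = 0.645). The shared chain Il1rap was at 2.35 to 3.4 CPM and 2.36 to 3.38 CPM (0.01 ± 0.22, adjusted p = 0.99). The adaptor Myd88 was at 1.52 to 2.22 CPM in Sham and 1.57 to 2.02 CPM in I/R (-0.05 ± 0.22, adjusted p = 0.919). The 11 markers of mast cells, innate lymphoid cells and eosinophils, which carry ST2, summed to 6.08 to 7.54 CPM in Sham. The sums were 5.92 to 6.85 CPM in I/R and 7.01 to 9.0 CPM in I/R + ML264. Only 4 of the 11 had enough counts to be tested. Kit alone was at 3.19 to 5.57 CPM in Sham and 3.74 to 4.14 CPM in I/R, so the sums say little about these cells.

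The comparison of I/R + ML264 with I/R asked what the KLF5 inhibitor altered in injured hearts. None of the 10 genes passed and none had separate groups. Tlr2 and Il1r1 had lower means under ML264, but with ranges that overlapped. By edgeR's adjusted p 0 of 10 were called, beside 0.0502% of all genes (8 genes), and 2 of 10, Tlr2 and Il1r1, had an unadjusted p under 0.05, beside 10.4% of all genes. DESeq2 called 0 of 10, beside 0.948% of all genes. Groups that did not overlap were found for 0 of 10, beside 2.54% of all genes in the higher and 3.08% in the lower direction. The median log2 fold change of the 10 was -0.08, beside 0.0 over all genes.

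Tlr2 averaged 2.11 ± 1.00 CPM (SD, n = 4) with ML264 and 3.59 ± 0.88 CPM in I/R, a log2 fold change of -0.77 ± 0.30 (SE), adjusted p = 0.367. Il1r1 averaged 18.4 ± 1.82 CPM and 25.2 ± 4.69 CPM, at -0.46 ± 0.15 (adjusted p = 0.278). In ML264 libraries Il1r1 spanned 17.0 to 21.0 CPM, so only I/R replicate 3, at 20 CPM, reached into that range. In the libraries above 10 CPM of Ddx3y the value was -0.16 (adjusted p = 0.869). Irak2 was at -0.30 ± 0.24 (adjusted p = 0.701) and Irak3 at 0.15 ± 0.20 (adjusted p = 0.84). Irak2 moved to -0.58 without ML264 replicate 2 and to -0.14 without ML264 replicate 3. The standard errors of the other 6 genes ran from 0.13 to 0.41 and their log2 fold changes from -0.16 (Il33) to 0.27 (Il1rap). Il1rap was at 0.09 without ML264 replicate 4. Il33 was at -0.76 without ML264 replicate 2 and at 0.09 without ML264 replicate 3, so single libraries set its value. With ML264 Tlr4 ranged from 29.3 to 46.3 CPM, Tlr3 from 11.5 to 14.5 CPM and Myd88 from 1.35 to 1.97 CPM, each range overlapping that of I/R. Il1rap ranged from 2.61 to 4.85 CPM and Il1rl1 from 2.69 to 3.54 CPM, and ML264 replicates 3 and 4 held the highest Il1rap of the 12 libraries.

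Against Sham, the ML264-treated injured hearts gave no call among the 10, beside 0.288% of all genes (46 genes). An unadjusted p under 0.05 was found for 2 of 10, Irak2 and Irak3, beside 13% of all genes, and DESeq2 called 1, Irak3, beside 2.32% of all genes. Groups without overlap were 0 of 10, beside 3.99% higher and 3.37% lower of all genes. Irak3 averaged 9.01 ± 3.01 CPM (SD, n = 4) and 5.24 ± 0.81 CPM in Sham, a log2 fold change of 0.78 ± 0.20 (SE), adjusted p = 0.119. Irak2 stood at 0.64 ± 0.24 (adjusted p = 0.265), Tlr2 at 0.57 ± 0.31 (adjusted p = 0.462) and Il33 at 0.69 ± 0.42 (adjusted p = 0.532). Single libraries moved these values: without ML264 replicate 2 Il33 stood at 0.09 and Irak2 at 0.36, and without ML264 replicate 4 Tlr2 stood at 0.27. In the libraries above 10 CPM of Ddx3y Il33 was at 0.08 and Irak2 at 0.40. The 6 others ran from -0.24 ± 0.13 (Tlr3) to 0.28 ± 0.22 (Il1rap), with Il1r1 at -0.05 ± 0.15, Tlr4 at 0.16 ± 0.14, Myd88 at -0.13 ± 0.22 and Il1rl1 at 0.07 ± 0.18. The 3 comparisons share libraries in pairs, so their values are not independent. The median over the 10 genes was 0.22, beside 0.002 over all genes.

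The rest of the pathway was read from lists of 86 other genes of these receptors, their ligands and their feedback, 83 of them in the table and 72 tested. These lists were also chosen with earlier results of these data known. Between I/R and Sham 10 rose and 1 fell, beside the 7.75% of all genes called in either direction. The median log2 fold change was 0.12, beside 0.002 over all genes. Groups did not overlap for 12 of the 72 in the higher and 6 in the lower direction, beside 8.54% and 7.25% of all genes. Of 11 feedback and output genes 4 rose and 1 fell, of 7 other Toll-like receptors tested 2 rose, and 1 rose in each of the co-receptors, IL-1 family receptors, kinases and ligases, and danger ligands.

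Among the receptors, Tlr1, which pairs with TLR2, measured 6.6, 7.39, 7.19 and 5.64 CPM in Sham and 17.2, 15.1, 15.4 and 9.85 CPM in I/R, without overlap. Its log2 fold change was 1.10 ± 0.23 (SE), adjusted p = 0.0113, and 20% of its 31-base words occur in other genes, chiefly its near copy Tlr6. Cd14, the co-receptor that passes ligands to TLR4 and TLR2, rose from 0.41 ± 0.13 CPM (SD, n = 4) to 3.16 ± 0.79 CPM, with 44 and 332 counts over the groups (2.93 ± 0.49, adjusted p = 0.00375). Tlr8 was called at 0.82 ± 0.23 (adjusted p = 0.0412) but kept its call in only 9 of 21 alternative settings. Il18r1, the IL-18 receptor chain, rose from 9.77 ± 1.51 CPM to 15.6 ± 3.24 CPM (0.68 ± 0.16, adjusted p = 0.0185) and kept its call in 16 of 21 settings.

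Of the 11 feedback and output genes, Tnfaip3, Nfkbiz, Nfkbia and Zc3h12a rose, Irf3 fell and 6 did not pass. Tnfaip3, the deubiquitinase A20, was at 3.62, 3.37, 4.79 and 3.1 CPM in Sham and 15.3, 19.4, 28.8 and 18.5 CPM in I/R (2.46 ± 0.43, adjusted p = 0.00936). Nfkbiz, a nuclear regulator of NF-kB, rose by 2.37 ± 0.41 on the log2 scale (adjusted p = 0.00985), Nfkbia, which holds NF-kB in the cytoplasm, by 1.73 ± 0.33 (adjusted p = 0.0077), and Zc3h12a, the RNase Regnase-1, by 1.62 ± 0.29 (adjusted p = 0.00384). Irf3, which acts downstream of TLR3, fell, at -0.74 ± 0.18 (adjusted p = 0.0204), from 6.99 ± 0.81 CPM to 4.19 ± 0.88 CPM. Its call ended in 6 of 21 settings. Map3k8, a kinase of the pathway, rose by 1.27 ± 0.24 (adjusted p = 0.00687), and Saa3, an acute-phase ligand, by 0.78 ± 0.15 (adjusted p = 0.00741). The call of Map3k8 was lost with Arntl as a term and that of Saa3 in the libraries above 10 CPM of Ddx3y.

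Of the ligands and signalling genes named by rule, Il1b averaged 0.96 ± 0.64 CPM in Sham and 7.43 ± 5.03 CPM in I/R, where I/R replicate 1 at 0.73 CPM lay inside the Sham range (2.97 ± 0.86, adjusted p = 0.0716). Il1a was at 1.84 ± 0.84 (adjusted p = 0.2) with 16 counts over the Sham group and 56 over I/R. The antagonist gene Il1rn stood at 0.38 ± 0.22 (adjusted p = 0.329), and the decoy receptor Il1r2 at 3.01 ± 0.91 (adjusted p = 0.0608) with 13 and 106 counts and no overlap. DESeq2 called both Il1b and Il1r2. Over all alternative settings Il1b was called in 3 of 21 and Il1r2 in 4 of 20. Irak1 was at -0.15 ± 0.11, Irak4 at 0.11 ± 0.20, Tirap at 0.01 ± 0.15, Ticam1 at 0.40 ± 0.16, Traf6 at 0.21 ± 0.10 and Tollip at 0.19 ± 0.12, none past the threshold. Il18 (18, 19 and 11 counts over the Sham, I/R and ML264 groups) and Sigirr (36, 17 and 40 counts) were too low to be tested.

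**Figure D3:**
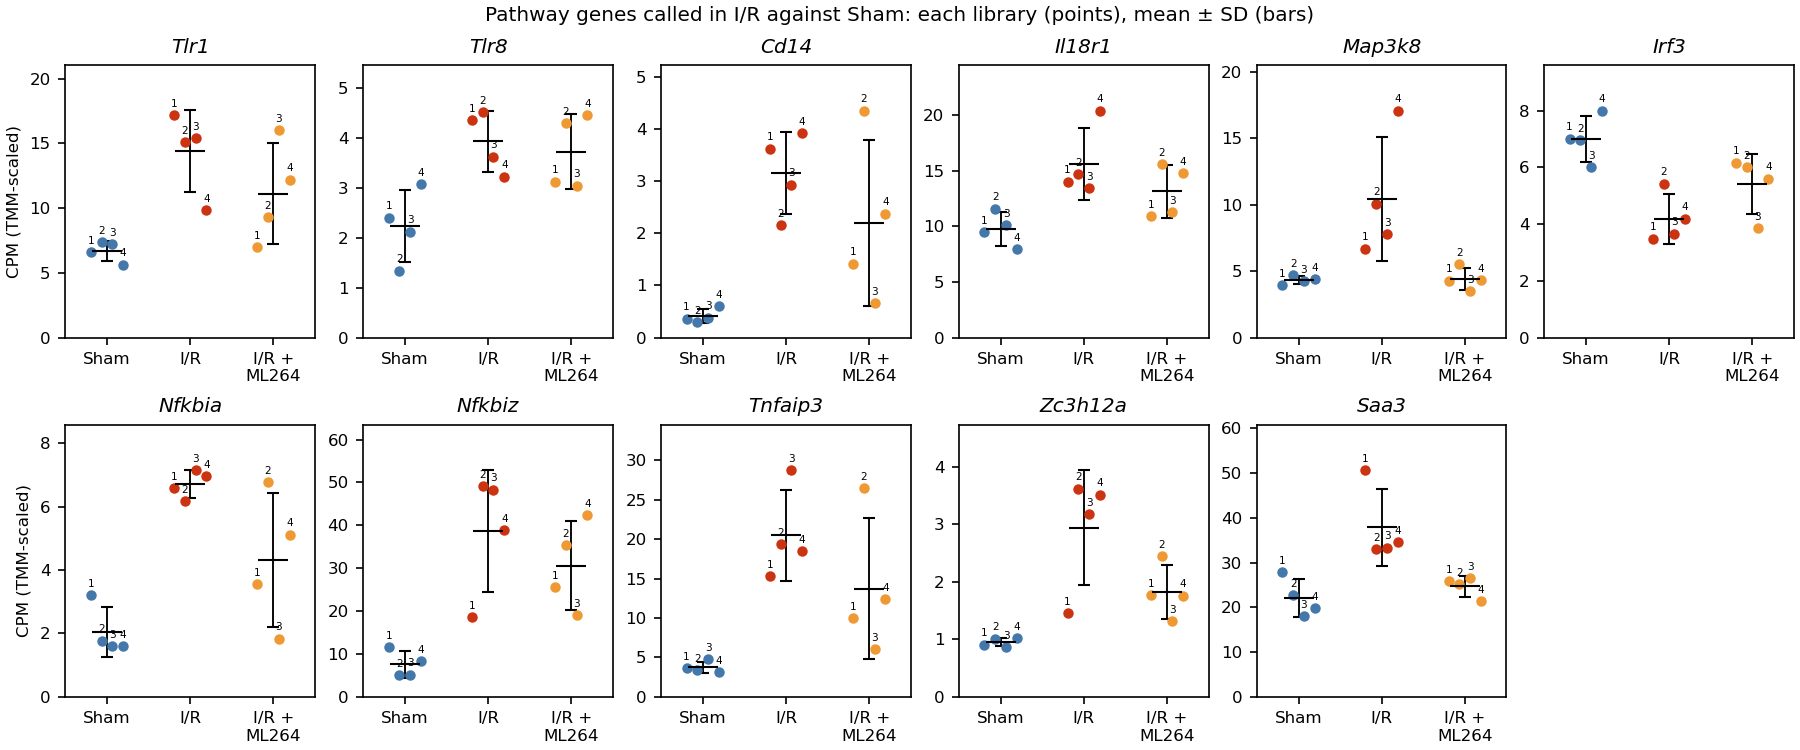
CPM (vertical axis, from 0, one scale per gene) of the 11 other pathway genes called between I/R and Sham, with points for the 12 libraries and bars for the mean and SD of each group of 4. The I/R points of Map3k8, from 6.70 to 17.1, lie above the ML264 points, from 3.47 to 5.52.

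Between I/R + ML264 and I/R no pathway gene was called by edgeR, and 9 of 72 had an unadjusted p under 0.05, beside 10.4% of all genes. DESeq2 called 2 of the 72, Map3k8 and Saa3, beside 0.948% of all genes. Map3k8 measured 6.7, 10.1, 7.8 and 17.1 CPM in I/R and 4.29, 5.52, 3.47 and 4.32 CPM with ML264, without overlap (-1.24 ± 0.24, adjusted p = 0.084). The pathway median was -0.10, with 19 genes above 0 and 53 below, beside a median of 0.0 over all genes. In I/R against Sham, which uses the same I/R libraries, 49 were above 0 and 23 below. In I/R + ML264 against Sham 37 were above and 35 below. These genes are not independent of one another, and the split was not tested. Against Sham the ML264 group gave no edgeR call among the 72 genes. An unadjusted p under 0.05 was found for 12, beside 13% of all genes. DESeq2 called 6 of the 72, among them Cd14, Nfkbiz and Tnfaip3, beside 2.32% of all genes.

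As a description, the tested genes whose log2 CPM ran most like these over the 12 libraries were sought among 10768 genes. For Tlr2 they were Wapl (Pearson r = 0.932) and Cfap69 (0.924), for Irak2 Stx19 and Tinagl1 (0.949 for each), and for Il33 Mllt3 (0.926) and Ubr1 (0.922). All points share the same libraries and the group differences, and no test was made. Tinagl1 measured 3.62 to 6.79 CPM in Sham, 14 to 22.9 CPM in I/R and 6.62 to 19.7 CPM with ML264.

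**Figure D4:**
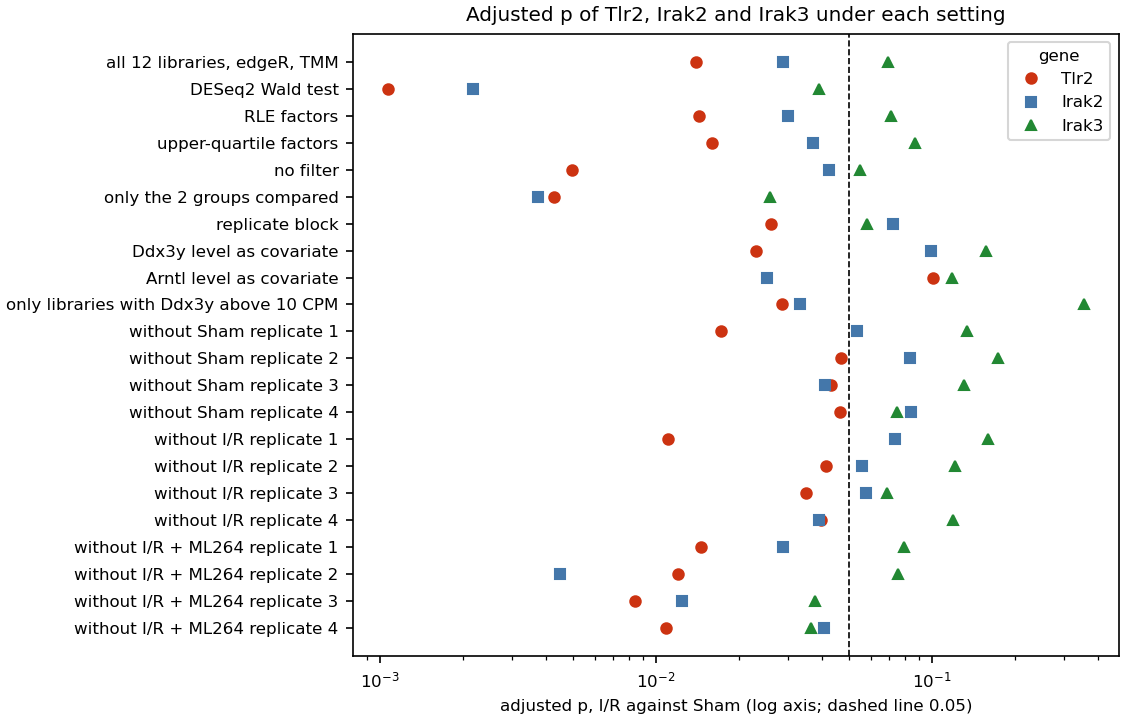
Adjusted p of Tlr2 (circles), Irak2 (squares) and Irak3 (triangles) in I/R against Sham (horizontal log axis, dashed line at 0.05) under the main model and the 21 alternatives (rows). Tlr2 ran from 0.00107 to 0.101 and lay below the line in 20 of 21, Irak2 from 0.00217 to 0.0993 in 13 of 21, and Irak3 from 0.0258 to 0.355 in 4 of 21.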

How the data were processed

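Per the labels' protocols, total RNA from frozen heart was extracted with TRIzol and made into Nextera XT libraries, which do not mark strand. The authors deposited raw estimated counts for each transcript in 1 table. The tools were FastQC and kallisto and the build GRCm38 (mm10), per the submitters' processing notes. Tool versions and annotation: not given in the sources used here.

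Values of all transcripts of a symbol were added and rounded to whole counts. In 2755 well-counted genes, the transcript with most counts was the same in a median of 16.9% of genes per library pair, beside 16.9% if transcripts were interchangeable within a gene. Transcript values therefore could not be used, and the planned share of soluble Il1rl1 transcripts was not computed. The spread of gene sums between replicates was alike for genes of 1 transcript (median SD of log2 CPM 0.184), 2 to 5 (0.181) and 6 or more (0.166).

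Library totals were 22.26 to 29.93 M (mega), so 3 counts stand for 0.1002 to 0.1348 CPM, which covers counting error only. The filterByExpr function left 15952 genes. One edgeR 4.0.16 model (R 4.3.3) of all 12 libraries, with TMM scaling and a robust quasi-likelihood fit, gave the 3 comparisons, and the code was tested on simulated data. CPM values are scaled by TMM factors, except those of Ddx3y and Arntl, which are counts over the library total. A gene is called where its p, adjusted by Benjamini and Hochberg over all genes, is under 0.05. The alternatives were DESeq2 1.42.0, RLE and upper-quartile factors, no filter, 2 groups only, a replicate block, Ddx3y or Arntl as a term, only libraries above 10 CPM of Ddx3y, and each library left out.

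The 10 genes and all lists were chosen with earlier results of these data known. Named are all 10, pathway genes called in any comparison, 13 pathway genes fixed by name, and the 2 genes most like Il33 and each called member. Coordinates are from GENCODE M21.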

Additional observations from a re-analysis of the deposited data

Results flagged for a closer look

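In 3 of 93 groups of 4 libraries checked, 1 library stood far from the other 3, where chance gives about 1 in 20. Nfkbia measured 3.21 CPM in Sham replicate 1 and 1.59 to 1.77 CPM in the other Sham libraries. Saa3 measured 50.7 CPM in I/R replicate 1 and 33.0 to 34.5 CPM in the other I/R libraries. Tollip, an inhibitor of IRAK signalling, measured 40.4 CPM in I/R replicate 4 and 26.4 to 28.5 CPM in the other I/R libraries. None of the 10 sensing genes had such a library.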

How the results depend on the processing

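Over the 21 alternatives, Tlr2 was called between I/R and Sham in 20, Irak2 in 13 and Irak3 in 4. Of the 10 genes, the number called fell from 2 to 1 with the replicate block, with Ddx3y as a term and with Arntl as a term, and was 1 to 3 with single libraries left out. Over all genes, 516 were called with Ddx3y as a term, 623 with Arntl as a term, 553 in libraries above 10 CPM of Ddx3y and 659 to 1485 with single libraries left out, beside 1236. For I/R + ML264 against I/R, DESeq2 called 2 pathway genes and 151 of all genes, no filter gave 22, the replicate block 1 and the libraries above 10 CPM of Ddx3y 2, beside 8. Leaving out single libraries gave 0 to 1 pathway genes and 0 to 85 of all genes, the highest without ML264 replicate 2 and 0 without ML264 replicate 1. For I/R + ML264 against Sham, DESeq2 called 1 of the 10, 6 pathway genes and 370 of all genes, and single libraries left out gave 0 to 1, 0 to 3 and 9 to 101. The other counts there were 78 with no filter, 27 with 2 groups only, 19 with the replicate block, 12 with Ddx3y and 12 with Arntl as a term, and 27 of all genes and 1 pathway gene in libraries above 10 CPM of Ddx3y, beside 46. The cause was not tested.

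Some fold changes that were never called, and that were near 0 in the main model, changed sign. Between I/R and Sham these were Il1rap (-0.04 with upper-quartile factors, -0.0014 with 2 groups only, -0.08 to 0.10 with libraries left out), Myd88 (-0.14 to 0.07), Irak4 (-0.02 with Arntl, -0.04 to 0.24) and Tirap (-0.04 with upper-quartile factors, -0.03 above 10 CPM of Ddx3y, -0.07 to 0.17). Between I/R + ML264 and I/R they were Tlr3 (-0.05 above 10 CPM of Ddx3y, -0.06 to 0.08), Tlr4 (-0.22 to 0.02), Myd88 (-0.17 to 0.01), Irak3 (-0.08 to 0.31) and Il33 (-0.76 to 0.09). Against Sham they were Il1r1 (0.12 with Arntl, -0.16 to 0.05) and Il1rl1 (-0.03 to 0.14).

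Same-numbered libraries correlated at -0.11 to 0.097 in their deviations from the group means, beside -0.104 to 0.142 for differently numbered ones. No shared deviation by number was seen, but this cannot tell whether same-numbered libraries were handled together. With the replicate block, Tlr2 kept its call and Irak2 stood at 0.93 (adjusted p = 0.0721). The soluble share of Il1rl1 was not run under any setting. Counts of 30 to 110 for Tlr2 and 34 to 192 for Il33 per library limit their precision.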

Other observations

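Platelet markers (Pf4, Ppbp, Itga2b, Gp1ba, Gp9 and Gp6) summed to 181 CPM in I/R replicate 4 and 130 CPM in ML264 replicate 4, and to 6.74 to 24.3 CPM in Sham. Both libraries were also the highest of their groups in summed neutrophil markers, at 23.2 and 22.1 CPM. The median log2 fold change of the 6 genes between I/R and Sham was 2.01, with overlapping sums.

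Within a gene, the deposited transcript values agreed between libraries about as often as interchangeable transcripts would, at 16.9% for both. In 2755 genes with 3 to 19 transcripts and a mean count over 500, the top transcript was shared in 14.8% to 19% of genes over 66 library pairs. The origin of this was not tested, and any use of the table for isoforms would rest on it.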
